A study of Mus musculus with 2 samples.

Results

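The Mir23, Mir27 and Mir24 genes form 2 clusters in the mouse genome, Mir23a, Mir27a and Mir24-2 on chromosome 8 and Mir23b, Mir27b and Mir24-1 on chromosome 13. These 6 genes were looked up by their GENCODE M21 symbol among the 1973 microRNA genes of the deposited tables. Rows were found for 5 of them, and Mir24-1 had no row of its own. The tables hold microRNA-seq counts, in which small RNAs below 30 nt are ligated to adapters and sequenced. The RNA was total RNA from the hindbrain of newborn (postnatal day 0) mice of strain B6NCrl, with no treatment, transgene or mutation named in the labels. There is 1 group of 2 libraries, each made from a single hindbrain of a different pup, pup 1 and pup 3, whose sex was not collected. With no second condition, the data give the level of each gene, its spread over the 2 pups, and the split between the clusters.

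The precursors of each cluster lie close together and are known to be cut from 1 shared primary transcript, so both clusters make a miR-23, a miR-27 and a miR-24. A microRNA guides the Argonaute complex to messenger RNAs chiefly through its seed, bases 2 to 8 from the 5′ end, and lowers their translation and stability. In these families the 3p arm, such as miR-23a-3p or miR-23b-3p, is known as the main product. The clusters are known for their presence in endothelial cells and their part in vessel growth. In the brain, miR-23 is known from astrocytes and from oligodendrocytes, where miR-23a acts on lamin B1. miR-27 is known to restrain fat cell formation, and miR-24 acts on genes of the cell cycle and of cell death.

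The mature sequences are shown because they decide which reads can be assigned to 1 of the clusters. RefSeq (GRCm38.p6) gave a hairpin for all 6 members and 11 mature entries, which come to 10 different sequences of 21 to 23 nt. Each is written 5′ to 3′ with the seed in capitals.
miR-23a-3p: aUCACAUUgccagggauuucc
miR-27a-3p: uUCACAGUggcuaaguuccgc
miR-27b-3p: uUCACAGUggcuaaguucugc
miR-24-3p (Mir24-2 and Mir24-1): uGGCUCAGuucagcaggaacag
miR-24-2-5p: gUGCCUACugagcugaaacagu
miR-24-1-5p: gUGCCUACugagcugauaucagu

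The 3p arms of Mir27a and Mir27b have the seed UCACAGU in common and differ by 1 base, C19U, counted from 1 at the 5′ end with the base of miR-27a-3p first. Their first 18 bases are identical. The 3p arm of Mir24-2 and Mir24-1 is the same sequence, so it cannot name its gene, whereas their 5p arms are alike over the first 16 bases and differ after that. A 22 nt 5p arm is listed for Mir23a and a 21 nt one for Mir23b, printed next because their seeds differ.
miR-23a-5p: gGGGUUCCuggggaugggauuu
miR-23b-5p: gGGUUCCUggcaugcugauuu

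Compared over whole precursors, the longest identical stretch was 20 nt between Mir23a and Mir23b, 20 nt between Mir27a and Mir27b, and 28 nt between Mir24-2 and Mir24-1. Those of Mir23 and Mir27 are shorter than the 21 nt of miR-23a-3p, miR-27a-3p and miR-27b-3p. Reads cut short, or aligned with a mismatch allowed, could still fit both copies of a pair. How many did so is not known, as the aligner was not given in the sources used here. The stretch of Mir24 holds the whole 22 nt miR-24-3p. The hairpins of Mir24 show this, with the stretch they share in capitals.
Mir24-2: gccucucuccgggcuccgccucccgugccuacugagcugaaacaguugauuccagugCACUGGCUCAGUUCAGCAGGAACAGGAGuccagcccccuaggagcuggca
Mir24-1: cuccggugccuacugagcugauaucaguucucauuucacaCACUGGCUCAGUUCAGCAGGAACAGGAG

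Both clusters lie on the plus strand (mm10, coordinates of GENCODE M21). On chromosome 8, Mir23a spans 84208518 to 84208592, Mir27a 84208672 to 84208758 and Mir24-2 84208815 to 84208921, a region of 404 nt with gaps of 79 and 56 nt. Mir23a and Mir27a lie outside any annotated host gene, and the last 2 bases of Mir24-2 overlap the start of the long non-coding RNA gene Gm26532. On chromosome 13, Mir23b spans 63300484 to 63300557, Mir27b 63300712 to 63300784 and Mir24-1 63301208 to 63301275, a region of 792 nt with gaps of 154 and 423 nt. That cluster lies inside 2010111I01Rik (Aopep in RefSeq), the gene of an aminopeptidase, on the same strand. Mir23b is intronic in all 9 transcripts of it that span the site. Mir27b is intronic in 8 transcripts and lies whole within an exon of 1. Mir24-1 is intronic in 7 transcripts and overlaps an exon of another 4, in part in 3 and whole in 1. The cluster also lies in an intron of Fancc, a Fanconi anaemia gene on the opposite strand. Opposite each Mir24 gene, M21 places a further microRNA gene on the minus strand, Mir3074-2 on chromosome 8 and Mir3074-1 on chromosome 13.

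**Figure D1:**
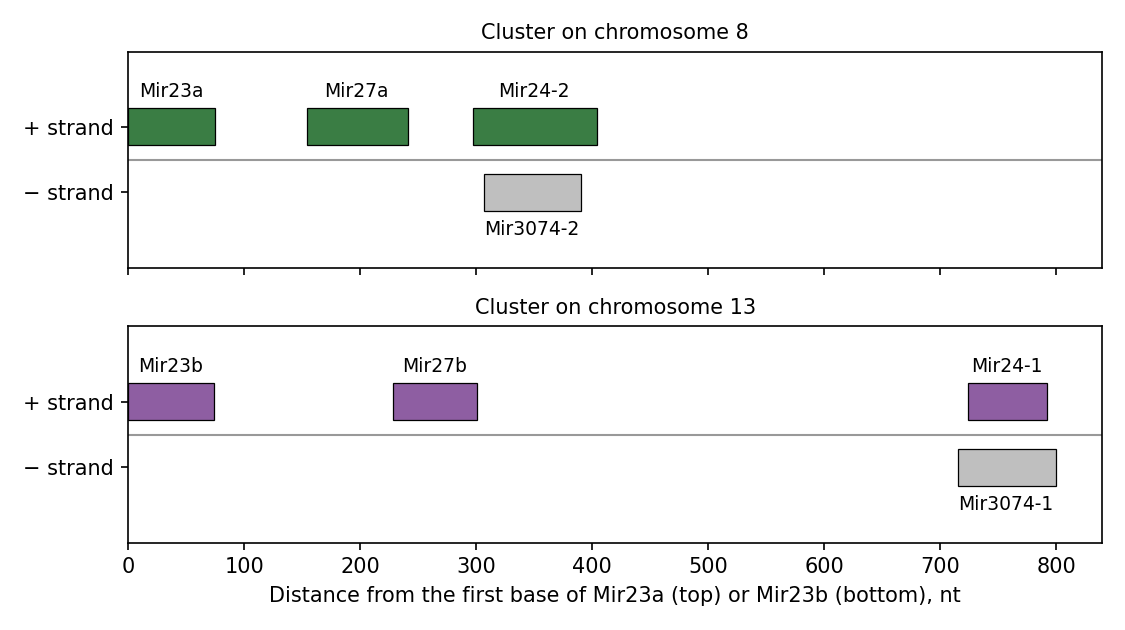
Position of the annotated precursors in nt from the first base of Mir23a (top) and of Mir23b (bottom), with members coloured and the Mir3074 genes of the minus strand in grey. The chromosome 8 cluster is packed into 404 nt, and the chromosome 13 cluster takes 792 nt because Mir24-1 lies 423 nt beyond Mir27b.

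Same-strand counts at microRNA genes numbered 2459757 in the library of pup 1 and 3012320 in that of pup 3, and CPM (counts per 1000000) are relative to these totals. Only reads that map to 1 place are in the gene rows, by the layout of the tables, while 40.2% (pup 1) and 42.0% (pup 3) of reads mapped to several places. The labelled tissue was checked on microRNA lists for other cells and positions. Neuronal microRNAs reached 10 CPM in both libraries for 7 of 10 genes, with 41522 and 43079 CPM summed in pups 1 and 3. Mir149 had the largest part of these sums, 17477 and 15600 CPM. By the test of the 2 pups given below, 4 of the 8 tested neuronal genes were higher in pup 3 and 3 were lower. The Hox-encoded microRNAs of the hindbrain and trunk did so for 4 of 6 genes and summed to 57126 and 34281 CPM, so the 2 libraries stood apart in this list. Leukocyte and microglia microRNAs summed to 611 and 683 CPM, red blood cell microRNAs to 165 and 124 CPM, and striated muscle microRNAs to 112 and 142 CPM. In the red blood cell list, Mir144 had 17.1 and 67.1 CPM and Mir451a 134 and 37.5 CPM in pups 1 and 3. The red blood cell sum thus hides large differences in opposite directions. No row was found under the symbols Mir142 and Mir142a of the leukocyte list, so its sum leaves them out. The list genes at 0 were Mir196a-1, Mir142b, Mir1a-1, Mir133a-1 and Mir133a-2. All but Mir142b have a further gene copy with the same main arm, whose reads map to several places, so these zeros carry no information on the tissue. Mir124a-1, of the neuron-rich Mir124 family, has such copies too and had 4.88 and 5.64 CPM.

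All 5 members with a row reached 10 CPM in both libraries, where 15.5% of all 1973 genes did. Together they held 1.80% of counts in pup 1 and 2.09% in pup 3, a mean of 1.94% ± 0.207 (SD, n = 2). Of the members' counts, Mir23a and Mir23b took 93.1% (exact interval 92.8% to 93.3%) for pup 1 and 92.2% (exact interval 92.0% to 92.4%) for pup 3. Intervals called exact are 95% Clopper-Pearson intervals, those called exact conditional are 95% intervals of odds ratios, and both cover counting error only. The reads carry no molecular identifiers, so copies of 1 molecule count as separate reads, which these intervals do not allow for. The counts are per precursor, so the 5p and 3p arms cannot be told apart, and no scaling by length was applied to arms of such similar length.

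Mir23b, on chromosome 13, was the member with the highest level. It had 22785 counts in pup 1 and 30764 in pup 3, or 9263 and 10213 CPM, with a mean of 9738 ± 671 CPM (SD, n = 2). By mean CPM it stood at rank 24 of the 1973 genes. Mir23a, its chromosome 8 paralog, had 18329 and 27226 counts, or 7452 and 9038 CPM, with a mean of 8245 ± 1122 CPM (SD, n = 2) and rank 28. Mir23b was above Mir23a in each pup, at 1.24 counts for 1 of Mir23a in pup 1 and 1.13 in pup 3. The values of the 2 genes did not overlap over the pups. Their means differed by less than the sum of their SDs. Both genes were measured in the same 2 libraries and both had higher CPM in pup 3, so these SDs are not the spread of the difference between them.

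The Mir27 genes were lower than the Mir23 genes of their own clusters, and unequal. Mir27b had 2377 counts in pup 1 and 3776 in pup 3, or 966 and 1254 CPM, with a mean of 1110 ± 203 CPM (SD, n = 2) and rank 101. Mir27a had 410 and 722 counts, or 167 and 240 CPM, with a mean of 203 ± 51.6 CPM (SD, n = 2) and rank 186. The lowest value of Mir27b was above the highest of Mir27a, and their ranges were far apart. Mir24-2, the third gene of the chromosome 8 cluster, had 270 and 415 counts, or 110 and 138 CPM, with a mean of 124 ± 19.8 CPM (SD, n = 2) and rank 216. Its counts were below those of Mir27a in each pup. They leave out miR-24-3p, whose sequence is the same at both Mir24 genes, so they are a lower limit and do not place the Mir24-2 locus below Mir27a. In assigned counts, the order Mir23b, Mir23a, Mir27b, Mir27a, Mir24-2 was the same in both libraries. These levels are a description, and no test was made between genes. How readily each sequence takes up the adapters was not measured, so the order is one of reads and may not be one of molecules.

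**Figure D2:**
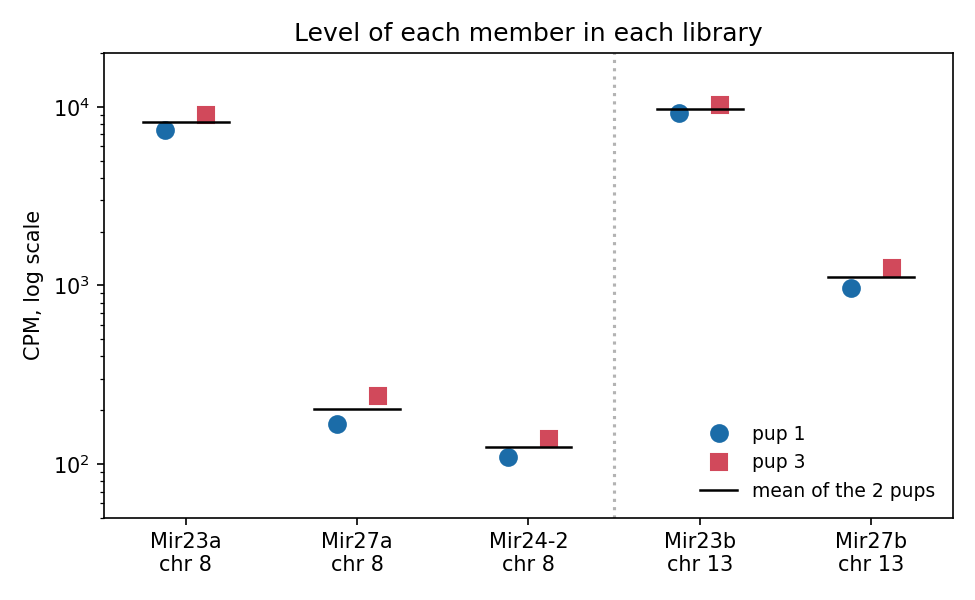
CPM of each member with a row on a log scale, with pup 1 as circles, pup 3 as squares and the mean as a line. Both Mir23 genes lie between 7452 and 10213 CPM, Mir27b near 1110 CPM, and Mir27a and Mir24-2 between 110 and 240 CPM.

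For each member, 1 gene was named whose values in the 2 libraries were nearest to its own on the log2(CPM + 1) scale. It was Mir382 for Mir23b (9143 and 10891 CPM, distance 0.09), Mir143 for Mir23a (7422 and 9520 CPM, distance 0.08) and Mir186 for Mir27b (918 and 1235 CPM, distance 0.08). It was Mir873a for Mir27a (171 and 231 CPM, distance 0.06) and Mir302a for Mir24-2 (116 and 130 CPM, distance 0.11). Likeness over only 2 libraries says little beyond a similar level.

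Mir24-1, the third gene of the chromosome 13 cluster, could not be given a level. The table has a row at that place under the identifier of Mir3074-1 (ENSMUSG00000092741.1), which M21 puts on the minus strand over the whole 68 nt of Mir24-1. That row held 292 same-strand and 23 opposite-strand counts in pup 1, and 328 and 38 in pup 3. The same-strand counts came to 119 and 109 CPM, close to the 110 and 138 CPM of Mir24-2, and the opposite-strand counts to 9.35 and 12.6 CPM. By the strands of M21, reads from Mir24-1 would be the opposite-strand ones. The tables were counted with GENCODE M4, and the identifier has since moved from version 1 to version 2. Its strand in M4 is not given in the sources used here, so which of the counts belong to Mir24-1 cannot be told.

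Mir24-2 had 1 opposite-strand count in pup 1 and 0 in pup 3, and Mir3074-2, annotated over it on the other strand, had no row. The limit that a count of 0 sets is 3 counts, which is 1.22 CPM for pup 1 and 0.996 CPM for pup 3. Mir23a, Mir27a, Mir23b and Mir27b had 0 opposite-strand counts in both libraries. The counts of Mir24-2 can hold only reads that are unique to its locus, and miR-24-3p is not. Its level is thus a lower limit for the locus, and how many miR-24-3p reads are among the 40.2% and 42.0% that mapped to several places was not tested. Among the genes of the table with a mature sequence in RefSeq, 87 have an arm identical to that of another gene. Of these 87, 37 reached 10 CPM in both libraries and had a median of 255 CPM. The other 829 genes included 245 that did, with a median of 406 CPM. Over all genes of each set the order was the reverse, with a median of 4.97 CPM for the 87 and 0.664 CPM for the 829. The shares at 10 CPM were 42.5% and 29.6%.

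The chromosome 13 cluster held somewhat more of the counts than the chromosome 8 cluster. Its 2 rows summed to 10230 CPM in pup 1 and 11466 CPM in pup 3, a mean of 10848 ± 875 CPM (SD, n = 2). The 3 rows of chromosome 8 summed to 7728 and 9416 CPM, a mean of 8572 ± 1193 CPM (SD, n = 2). The share on chromosome 13 was 56.97% (exact interval 56.5% to 57.4%) for pup 1 and 54.9% (exact interval 54.5% to 55.3%) for pup 3. It is nearly the split of the Mir23 pair, in which Mir23b had 55.4% (exact interval 54.9% to 55.9%) for pup 1 and 53.1% (exact interval 52.6% to 53.5%) for pup 3. In the Mir27 pair, Mir27b had 85.3% (exact interval 83.9% to 86.6%) for pup 1 and 83.9% (exact interval 82.8% to 85.0%) for pup 3. The Mir27 counts were thus divided much less evenly than the Mir23 counts, at 5.80 and 5.23 counts of Mir27b for 1 of Mir27a, against 1.24 and 1.13 of Mir23b for 1 of Mir23a. These splits cover only reads assigned to 1 copy, and they are splits of reads, with the uptake of adapters by each sequence not measured.

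**Figure D3:**
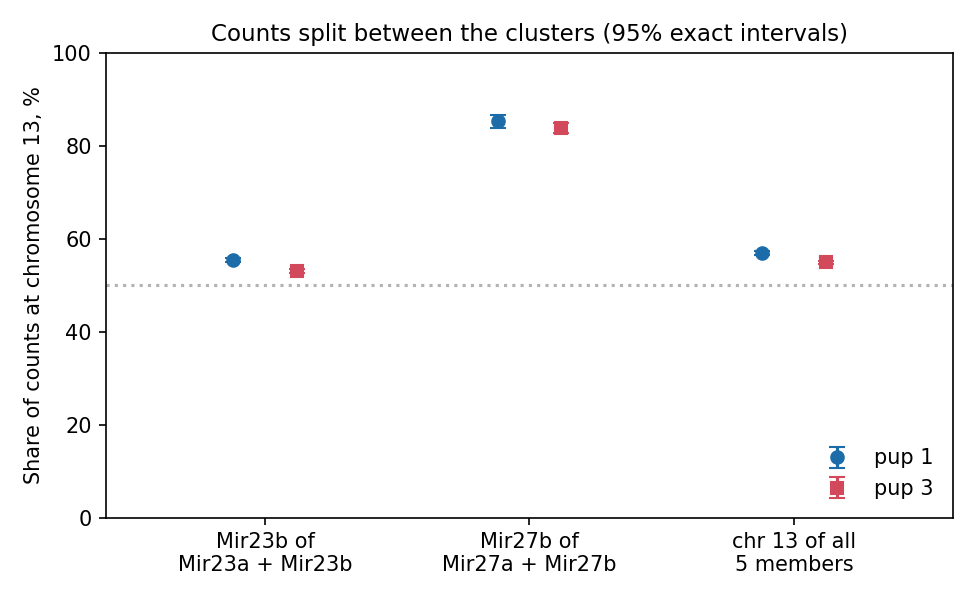
Percent of counts at the chromosome 13 copy in pup 1 (circles) and pup 3 (squares), with exact 95% intervals as bars and a dotted line at an even split. The Mir23 pair is divided at 55.4% and 53.1%, and the Mir27 pair at 85.3% and 83.9%.

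Genes of 1 cluster differed widely in counts, and the ratios given here are ratios of reads between different sequences. On chromosome 8 there were 44.7 counts of Mir23a for 1 of Mir27a in pup 1 and 37.7 in pup 3, and 67.9 and 65.6 for 1 of Mir24-2. On chromosome 13 there were 9.59 and 8.15 counts of Mir23b for 1 of Mir27b. The ratios to Mir24-2 are upper limits, since its own count is a lower limit. In mean CPM, Mir23b was 8.77 times Mir27b. Of 30 clusters in which 2 tested genes lie within 10 kb of each other on 1 strand, 14 had a wider range than Mir23b and Mir27b and 15 a narrower one, with a median of 8.47 times. Clusters with a gene that has an arm identical to that of another gene were not set apart. Such a gene loses reads as Mir24-2 does, which can change the range, so this median is no measure of a usual range.

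In both clusters the ratio of Mir27 to Mir23 was higher in pup 3. The log2 ratio of Mir27a to Mir23a was 0.25 higher in pup 3 (exact conditional interval 0.07 to 0.43), and that of Mir27b to Mir23b was 0.23 higher (exact conditional interval 0.16 to 0.31). Such ratios do not depend on the scaling of the libraries. The log2 ratio of Mir23b to Mir23a was lower in pup 3, at -0.14 (exact conditional interval -0.17 to -0.10), and that of Mir27b to Mir27a changed by -0.15 (exact conditional interval -0.34 to 0.04). The interval of the Mir27 pair includes 0, so a shift of its split was not detectable at this depth, though its size was near that of the Mir23 pair. The log2 ratio of Mir24-2 to Mir23a changed by 0.05 (exact conditional interval -0.18 to 0.28) and that of Mir24-2 to Mir27a by -0.20 (exact conditional interval -0.48 to 0.09), again with 0 in both intervals. The likeness of these shifts was not tested. All intervals of these shifts cover counting error only and not the spread between pups. Log2 folds of single genes between these 2 pups had an estimated SD of 0.34, larger than each of these shifts.

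All 5 members were higher in pup 3 by the exact binomial test of each gene's 2 counts, with Benjamini-Hochberg adjustment over the 395 genes that had at least 10 counts in either library. Of those 395, 46.8% differed between the libraries in either direction and 25.6% were higher in pup 3. The test compares 2 libraries beyond counting error, with no replicate on either side, and passes readily for abundant genes: 50 of the 51 genes counted 10000 times or more in each library passed. Of the 262 genes counted 100 times or more in each library, as all 5 members were, 170 (64.9%) passed. The log2 fold was 0.47 for Mir27a (counting interval 0.29 to 0.65, exact binomial adjusted p = 3.3e-07), 0.32 for Mir27b (0.25 to 0.40) and 0.23 for Mir23a (0.20 to 0.25). It was 0.09 for Mir23b (0.06 to 0.11) and 0.27 for Mir24-2 (0.05 to 0.50, exact binomial adjusted p = 0.034). The call of Mir24-2 did not hold with all genes that had any count tested (exact binomial adjusted p = 0.059) or with reads of either strand (exact binomial adjusted p = 0.053).

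The members' folds were also set against the spread of all genes between the same 2 libraries. The common biological coefficient of variation estimated with edgeR was 16.5% over 361 genes, which gives log2 folds between 2 pups an SD of 0.34. Of the 5 members, 4 lay within 1 such SD, and Mir27a lay at 1.40 SDs, while 65.8% of all 395 tested genes lay within 1. The median log2 fold was 0.27 for the members and 0.02 for all tested genes, and the median without regard to sign was 0.27 for the members and 0.22 for all. No member passed both the test and a fold of 1.5, where 9.62% of all tested genes did.

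**Figure D4:**
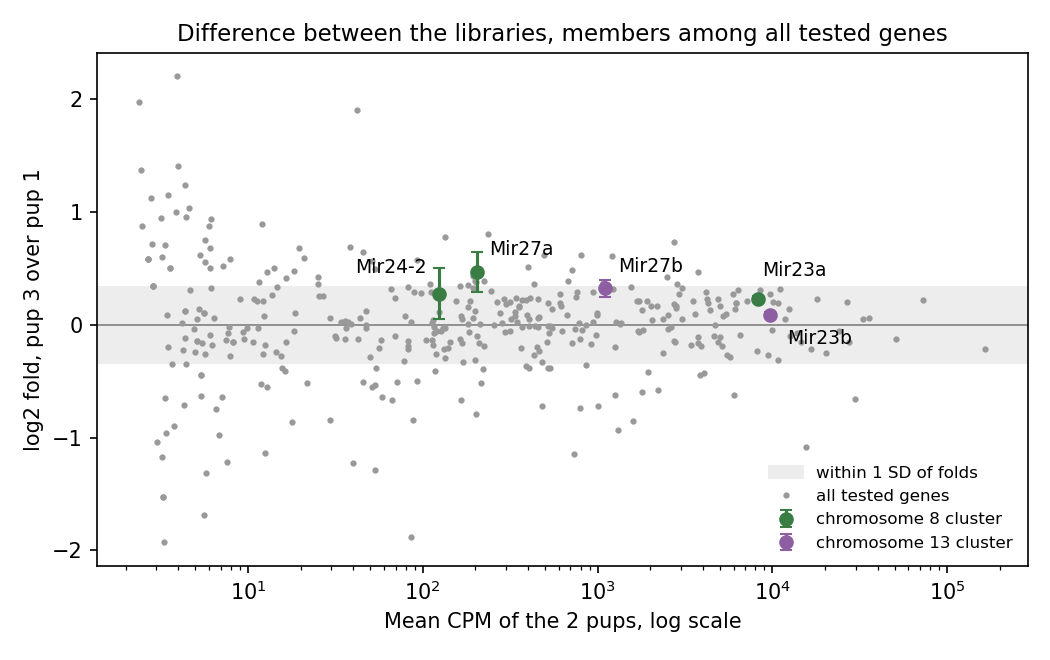
log2 fold of pup 3 over pup 1 against mean CPM on a log scale for all 395 tested genes (grey), with the members coloured by cluster, their 95% counting intervals as bars, and a grey band of 1 SD (0.34). Each of the 5 members lies above 0, between 0.09 and 0.47, and only Mir27a lies outside the band.

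MicroRNAs of cells in which these clusters are known were read beside this difference. In bulk tissue, more cells of a type and more RNA per cell cannot be told apart. Endothelial and mural microRNAs summed to 42605 CPM in pup 1 and 47345 CPM in pup 3, and 5 of 5 genes with a row reached 10 CPM in both. By the same test, higher values in pup 3 were called for 2 of these 5 and a lower value for 1, and the other 2 passed in neither direction. Of all 395 tested genes, 101 (25.6%) were called higher in pup 3 and 84 lower. With lists this short, the called counts of each list are a description only. Mir126a, the microRNA that marks endothelial cells, had 34216 and 36931 CPM (log2 fold 0.06, called). Among the mural genes, Mir143 had a log2 fold of 0.31 (called) and its cluster partner Mir145a one of -0.10 (not called). Mir221 had a log2 fold of -0.27 (called lower) and Mir222 one of -0.06 (not called), and the median of the list was -0.06. Mir26 and Mir29 genes, known from astrocytes, summed to 17104 and 20823 CPM, with 5 of 7 at 10 CPM in both. Of these 7, 3 were higher in pup 3, 0 were lower and 4 did not pass, with a median log2 fold of 0.14. The 4 were Mir26a-1, Mir26a-2, Mir29b-1 and Mir29b-2, copies that share a main arm in pairs. Their counts leave out reads of that arm that map to several places, so their calls and this median are no measure of those microRNAs. Mir26b had 16161 and 19682 CPM (log2 fold 0.23). Mir219 and Mir338 genes, known from oligodendrocytes, were on no list. Of those tested, Mir219a-2 (log2 fold 0.29) and Mir338 (log2 fold 0.24) were called higher in pup 3, and Mir219a-1 (log2 fold -0.07) was not called. Mir219a-1 and Mir219a-2 also share a main arm, whose reads that map to several places their counts leave out. The Hox-encoded microRNAs had a median log2 fold of -0.38, with 0 of 5 tested genes called higher and 2 called lower in pup 3. Their called genes were Mir10a (log2 fold -0.65) and Mir10b (log2 fold -1.09), which are known from the posterior hindbrain and spinal cord. The part of these cell types, or of the position of the tissue taken, in the members' difference was not tested.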

How the data were processed

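The authors deposited 1 table of raw read counts per library, made on mm10 with GENCODE M4, as the deposited listings say. The aligner was not given in the sources used here, nor were the counter and the adapter trimming. A table has 3 count columns. The first equals the sum of the others in every gene row, and they were read as either strand, same strand and opposite strand. The same-strand column was used, and rows that name no gene (57.7% of reads in pup 1 and 58.0% in pup 3) were left out of totals. Symbols came from GENCODE M21 by identifier without version, matching 1894 of 1973 rows.

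Members and lists were chosen with earlier results of these data known. Genes named besides members were those within 10 kb, host genes, genes with an identical mature arm, and the nearest gene in level, and the list genes given beside the results were picked after their values were seen. The Mir219 and Mir338 genes, on no list, were also added after their values were seen. Counts were compared by the exact binomial test on TMM-scaled totals (edgeR 4.0.16 in R 4.3.3, scipy 1.17.1), two-sided, adjusted over all tested genes at 0.05, with a prior of 0.5 counts for folds. Changes of ratios have exact conditional odds ratio intervals, which cover counting error only. edgeR also gave the coefficient of variation, from an intercept-only design over genes counted 10 times or more in each library. Its quasi-likelihood test could not be used, as there is 1 group and so no contrast of replicated groups. Scripts were tested on simulated data. Scaling, filter, strand, denominator, prior and single libraries were varied.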

Additional observations from a re-analysis of the deposited data

Results flagged for a closer look

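The opposite-strand column, which enters no main comparison of the pups, exceeded the 3 counts that a count of 0 allows at 1 place near the members. The counts were 23 in pup 1 and 38 in pup 3 at the row of Mir3074-1, over Mir24-1 on chromosome 13. These made up 7.30% (exact interval 4.68% to 10.8%) of that row's either-strand counts for pup 1 and 10.4% (exact interval 7.45% to 13.97%) for pup 3. The 5 members with a row had at most 1 opposite-strand count in either library. The same-strand counts of the row had a log2 fold of -0.18 between the pups (counting interval -0.41 to 0.05), so the row did not pass the test that the members passed (exact binomial adjusted p = 0.23).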

How the results depend on the processing

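The members' levels depend on the total they are scaled to, and the order of their assigned counts does not. Over all reads, mean CPM was 3474 for Mir23a, 85.6 for Mir27a, 52.1 for Mir24-2, 4104 for Mir23b and 468 for Mir27b, with 3611 for the chromosome 8 cluster and 4571 for the chromosome 13 cluster. With the 10 most abundant genes left out of the total it was 15984, 393, 240, 18891 and 2151, with 16617 and 21042 for the clusters. With a fold of 1.5 asked for as well, 0 members and 38 of all tested genes differed between the libraries. Of 20 alternative folds of the members (2 scalings, either-strand reads and a prior of 5 counts), 19 kept direction and call. The exception was Mir24-2 with either-strand reads (log2 fold 0.25, exact binomial adjusted p = 0.053), and with no filter on low counts 4 of the 5 members passed. Plain totals raise every log2 fold by 0.05. The share on chromosome 13 was 56.3% without the Mir24 genes. With the counts of the Mir3074-1 row added, an alternative chosen after seeing the data, it was 56.2% for same-strand and 55.96% for opposite-strand counts. No split was possible for the Mir24 pair. No paired analysis was possible because there is 1 group. With 2 libraries, the SDs rest on 2 values each.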
